A study of Mus musculus with 6 samples.

Results

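Lipoprotein assembly, remodelling and clearance were followed through 10 liver genes, chosen by name and read from their rows in the raw count table. They are Mttp, Lipc, Lipg, Lpl, Lcat, Pltp, Scarb1, Lrp1, Sort1 and Abca1. All 10 were among the 23412 gene symbols of the table, and all 10 passed the low-count filter that left 12626 genes for testing. RNA was sequenced from whole liver of C57BL/6J mice, an inbred strain, given as 8 weeks of age. Both groups ate a diet high in fat for 4 weeks. One group (HFD_Lira3d) then received liraglutide, a drug that acts on the receptor of the gut hormone GLP-1, under the skin at 300 µg/kg for 3 days. The other (HFD_PBS3d) is labelled PBS, phosphate-buffered saline. Each group has 3 libraries, named here Lira161, Lira162, Lira164, PBS155, PBS157 and PBS158 after their columns.

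The liver packs triglyceride, cholesterol and apolipoprotein B into very low density lipoproteins (VLDL) in the endoplasmic reticulum and secretes them. Lipases on vessel walls strip the triglyceride in the circulation, and hepatic receptors take up the remnants. In parallel, cholesterol leaves cells onto apolipoprotein A-I, is esterified within high density lipoprotein (HDL), and returns to the liver through a receptor for HDL. Mttp loads lipid onto apolipoprotein B. Lipc, Lipg and Lpl encode hepatic, endothelial and lipoprotein lipase. Lcat, Pltp, Abca1 and Scarb1 act on HDL, and Lrp1 and Sort1 are endocytic and sorting receptors.

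After liraglutide, Lipg rose and Sort1 fell, and the other 8 genes did not pass the test. Lipg was 1.77-fold higher (log2 fold change 0.82 ± 0.17, SE, n = 3 per group) and Sort1 1.79-fold lower (-0.84 ± 0.18). The next smallest p belonged to Abca1, at -0.48 ± 0.14 with an adjusted p of 0.0623 in edgeR's quasi-likelihood test. These 2 called genes are 2 of 10, beside 8.77% of all tested genes called in either direction (4.08% higher and 4.69% lower). The median log2 fold change of the 10 was -0.10, against 0.01 over all tested genes. In all, 46.5% of the called genes of the table were higher, and 57.2% when library totals replaced the TMM scaling, which moved the median of all genes to 0.06. Without library Lira161 or PBS155 neither gene was called. Without Lira162 only Sort1 was called, and without PBS157 or PBS158 only Lipg. Without Lira164, Lipg, Sort1, Lrp1 and Abca1 were called. The share of all tested genes called moved as well. It was 3.62% without Lira161, 3.09% without Lira162 and 11.7% without Lira164. It was 7.56% without PBS155, 5.12% without PBS157 and 3.22% without PBS158.

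**Figure D1:**
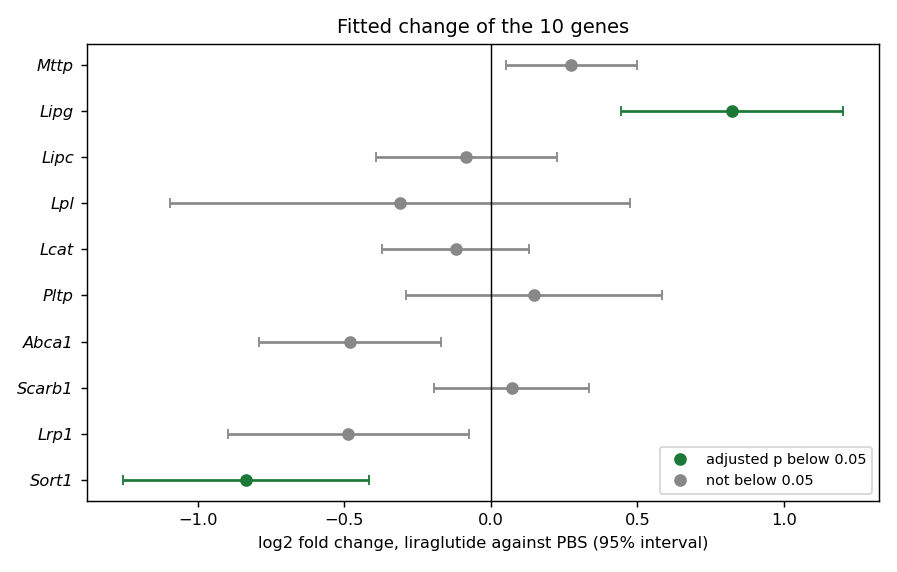
Fitted log2 fold change of liraglutide against PBS for the 10 genes (points) with 95% intervals (bars), 3 libraries per group. Lipg lies at 0.82 and Sort1 at -0.84, the 2 genes with an adjusted p below 0.05, and the intervals of Mttp, Lrp1 and Abca1 also leave 0 aside before adjustment.

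Library totals lay between 20888991 and 27007182 counts, and the 10 genes together held between 0.195% and 0.254% of them. CPM below are read counts relative to the size of the library after TMM scaling, except for summed marker levels, which are scaled to library totals. Of 9 hepatocyte markers, 1 was called higher and none lower, with a median log2 fold change of -0.23. The called one, Hnf4a, was at 1081 ± 78.7 CPM (SD) under liraglutide and at 751 ± 85.6 CPM in PBS (0.53 ± 0.13, edgeR adjusted p = 0.0338; not called without Lira161, Lira162, PBS155 or PBS157). Alb was at 51368 ± 8970.3 against 68786 ± 11416 CPM and Cps1 at 4414 ± 1831 against 2428 ± 242 CPM, neither of them called. Of the 9, Hnf4a and Cps1 were higher in every liraglutide library than in every PBS library, beside 14.9% of all tested genes. Serpina1a, Trf and Fgb were lower in every liraglutide library, beside 16.4% of all tested genes, and none of these 3 was called. Whether each library came from its own mouse is not stated in the labels, so the p-values speak only of the spread among these 6 libraries, which could be technical. With whole liver, fewer cells of a type and less RNA per cell cannot be told apart. Liraglutide lowers food intake, and with these groups alone a direct action and that of eating less cannot be told apart.

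Levels of different genes were compared only per exon length, as CPM per kb. In PBS livers Lcat was at 274 ± 14.1 CPM per kb (SD, n = 3), above Lipc at 79.0 ± 4.71, Mttp at 70.1 ± 1.96 and Lrp1 at 45.5 ± 8.19. Abca1 followed at 25.0 ± 2.20, Scarb1 at 21.7 ± 1.71, Pltp at 10.9 ± 3.05, Lipg at 7.06 ± 1.27 and Sort1 at 5.39 ± 0.62. Lpl was the least abundant at 1.45 ± 0.51. The ranges of neighbours overlapped for Abca1 and Scarb1, for Pltp and Lipg, and for Lipg and Sort1, so their order is not fixed by these libraries. Under liraglutide Lcat still led at 252 ± 25.2 CPM per kb and Lpl was still last at 1.18 ± 0.40. Mttp (84.8 ± 2.28) then stood above Lipc (74.5 ± 14.1) by mean, with overlapping ranges. Lipg at 12.5 ± 2.28 came next to Pltp at 12.1 ± 1.27. Exon lengths join the exons of all annotated transcripts, from 1.34 kb for Lcat to 17.7 kb for Lrp1, so a gene with many long transcripts that liver does not use is placed too low.

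**Figure D2:**
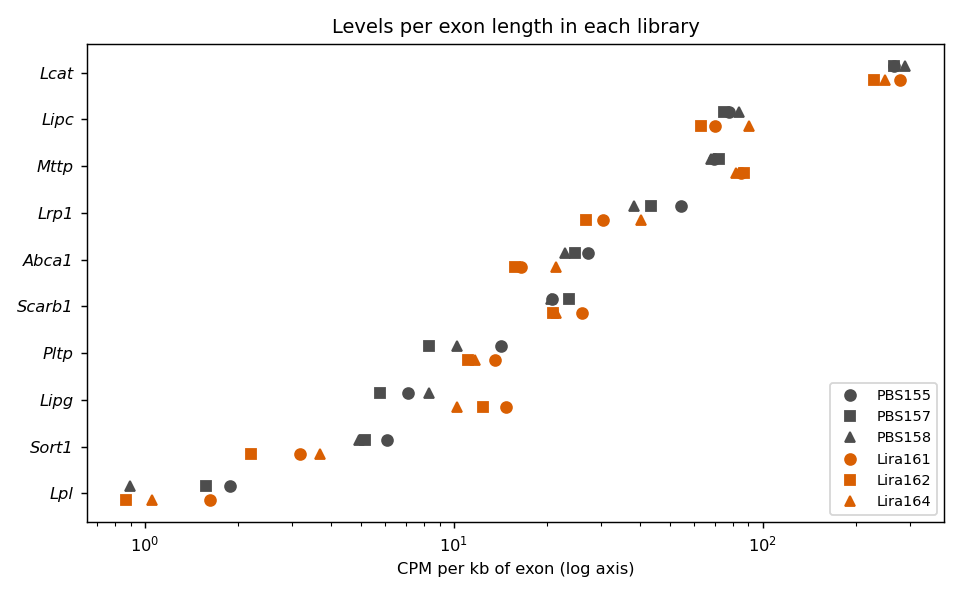
Level of each of the 10 genes in each library, as TMM-normalised CPM per kb of exon on a log axis, with PBS libraries in grey and liraglutide libraries in orange. Lcat lies highest (274 CPM per kb in PBS) and Lpl lowest (1.45), and the groups do not overlap for Mttp, Lipg, Abca1 and Sort1.

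Mttp encodes the microsomal triglyceride transfer protein, without which apolipoprotein B is not lipidated and VLDL is not formed (chromosome 3, 138089854 to 138144968, GRCm38). It was at 433, 448 and 424 CPM in PBS155, PBS157 and PBS158, and at 529, 538 and 511 CPM in Lira161, Lira162 and Lira164. Every liraglutide library lay above every PBS library, and the spread within each group was the smallest of the 10 genes, with a coefficient of variation of 2.80% in PBS and 2.69% under liraglutide. The difference was 0.27 ± 0.10 on the log2 scale (95% interval 0.05 to 0.50) with an unadjusted p of 0.0211 and an adjusted p of 0.119 in edgeR. It did not pass the threshold in that test and did in the Wald test of DESeq2 (adjusted p = 0.0474). Exons of Mttp overlap those of Trmt10a by 457 bp on the opposite strand, 7.36% of its exon length, and those of the antisense gene Gm43691 by 132 bp. No label or file states whether reads were counted by strand. Reads in such overlaps therefore cannot be told apart. Mttp, Lipg, Sort1 and Abca1 were the 4 of 10 genes whose groups did not overlap, beside 31.3% of all tested genes.

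Among the partners of VLDL assembly and of transport out of the endoplasmic reticulum, 3 of 28 tested genes rose and 2 fell, with a median log2 fold change of 0.08. Sec24d and Sec23a, subunits of the COPII coat that buds cargo from the endoplasmic reticulum, rose. Sec24d went from 70.9 ± 7.87 to 129 ± 26.8 CPM (0.86 ± 0.15, adjusted p = 0.0129 in edgeR) and Sec23a from 118 ± 6.33 to 183 ± 26.7 CPM (0.63 ± 0.12, adjusted p = 0.0153). Tor1a, which encodes the ATPase torsin A, rose by 0.61 ± 0.13, and Pdia3, a disulphide isomerase of the endoplasmic reticulum, fell by 0.58 ± 0.13. The fifth called gene was Dgat2, of triglyceride synthesis (-0.53), named after its values were seen. Apob itself, the structural protein of VLDL, was at 10466 ± 563 CPM against 10427 ± 1777 (0.01 ± 0.15), and P4hb, the subunit that pairs with the Mttp protein, at 1303 ± 85.2 against 1283 ± 23.7 CPM (0.02 ± 0.11). Both were also chosen after their values were seen. Sec24d lost its call without PBS158 and Sec23a without PBS157 or PBS158. Tor1a lost it without Lira161, Lira162, PBS155 or PBS158, Pdia3 without Lira161, Lira162, PBS157 or PBS158, and Dgat2 without Lira161, Lira162, PBS155 or PBS158 and with library totals.

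Of 22 tested apolipoprotein genes, the protein parts of these particles, 2 rose and 1 fell, with a median log2 fold change of -0.11. Apoa5, which is also counted among the lipase partners, and Apoa4 rose. Apoa4 was at 682, 1355 and 747 CPM in PBS155, PBS157 and PBS158 and at 11823, 15799.9 and 3232 CPM in Lira161, Lira162 and Lira164 (3.47 ± 0.68, adjusted p = 0.0387 in edgeR). All its liraglutide libraries were above all PBS libraries, with Lira164 far below the other two. Apol9b fell from 129 ± 14.6 to 51.1 ± 18.7 CPM (-1.34 ± 0.29, adjusted p = 0.0380), and its value is uncertain because it may share reads with its copy Apol9a. Apoa4 was called in 1 of the 6 fits that leave out a library, that without Lira164, and Apol9b in 1, that without Lira162. Neither was called without the low-count filter. Apoe and Apoa1, abundant in liver, were at 23354 ± 755 against 21893 ± 2094 CPM (0.09 ± 0.14) and 14011 ± 1556 against 12344 ± 1832 CPM (0.18 ± 0.16), both chosen after their values were seen.

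**Figure D3:**
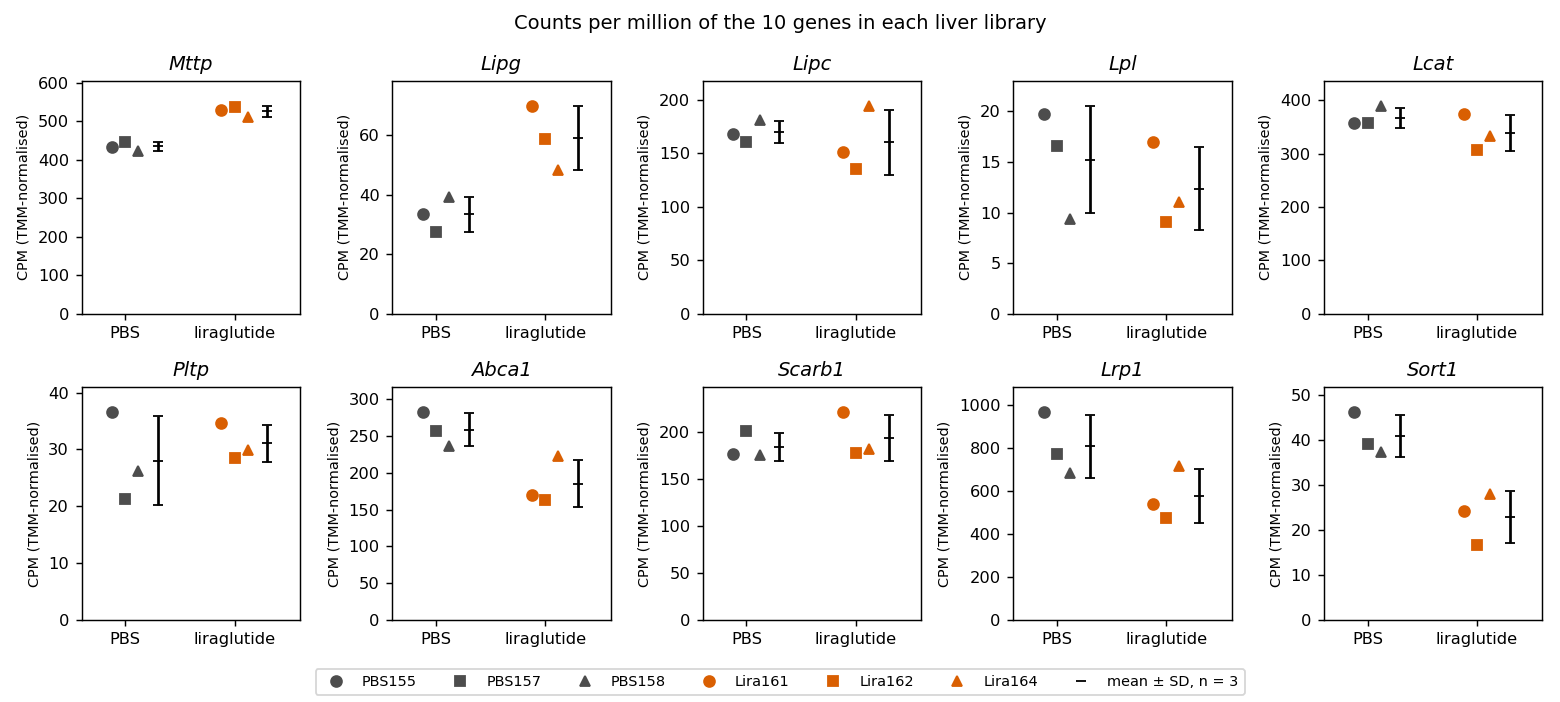
TMM-normalised CPM of the 10 genes in the 3 PBS libraries (grey) and 3 liraglutide libraries (orange), 1 panel per gene with its own axis from 0, and the mean ± SD of each group in black. The groups do not overlap for Mttp, Lipg, Abca1 and Sort1, and Lira164 lies nearest to the PBS libraries among liraglutide libraries for Lipg, Abca1, Lrp1 and Sort1.

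Of the 3 lipases, Lipg alone passed the test. Lipg encodes endothelial lipase, a phospholipase that acts mainly on HDL (chromosome 18, 74939322 to 74961263). It was at 33.4, 27.3 and 39.2 CPM in PBS155, PBS157 and PBS158, and at 69.7, 58.8 and 48.2 CPM in Lira161, Lira162 and Lira164. The lowest liraglutide library stood above the highest PBS library, with Lira161 the highest of all. The log2 fold change of 0.82 (95% interval 0.44 to 1.20) had an adjusted p of 0.0212 in edgeR. It lost its call without Lira161 (adjusted p = 0.0651), Lira162 (0.0777) or PBS155 (0.0602), with values between 0.68 and 0.95 over the 6 fits that leave a library out.

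Lipc encodes hepatic lipase, which hydrolyses triglyceride and phospholipid of remnants and HDL on the surface of hepatocytes (chromosome 9, 70798128 to 70952226). It was at 168, 160.9 and 181 CPM in PBS155, PBS157 and PBS158 and at 151, 136 and 194 CPM in Lira161, Lira162 and Lira164. The groups overlapped, with both the lowest and the highest value among the liraglutide libraries. The log2 fold change was -0.08 ± 0.14 (95% interval -0.39 to 0.23, adjusted p = 0.742 in edgeR), and 0.02 without Lira162. The ratio of Lipg to Lipc within a library, which no scaling between libraries can alter, was 0.211, 0.197 and 0.113 in Lira161, Lira162 and Lira164 and 0.0909, 0.0773 and 0.0989 in PBS155, PBS157 and PBS158, per exon length. It was higher in each liraglutide library than in any PBS library, by little in Lira164. This pair was chosen after the values were seen, and the ratio was not tested.

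Lpl encodes lipoprotein lipase, the main triglyceride lipase of fat and muscle, which macrophages also make (chromosome 8, 68880491 to 68907448). It was at 19.8, 16.6 and 9.41 CPM in PBS155, PBS157 and PBS158 and at 17.0, 9.07 and 11.04 CPM in Lira161, Lira162 and Lira164. The groups overlapped, and its coefficient of variation, 34.8% in PBS and 33.5% under liraglutide, was the largest of the 10 genes. The log2 fold change was -0.31 ± 0.33 (95% interval -1.095 to 0.48, adjusted p = 0.604 in edgeR). It moved to -0.60 without Lira161 and to -0.09 without PBS155.

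Markers of endothelial cells, Kupffer cells and adipocytes varied between libraries. The mean log2 level of 12 endothelial markers relative to PBS was 0.27, 0.78 and 1.01 in Lira161, Lira162 and Lira164, and 0.56, -0.26 and -0.30 in PBS155, PBS157 and PBS158. Of the 12, Clec4g was called (0.78 ± 0.17, adjusted p = 0.0250 in edgeR; not without Lira161, Lira162, PBS157 or PBS158), and their median log2 fold change was 0.74. Their summed level ranged from 292 to 475 CPM under liraglutide and from 170 to 332 CPM in PBS, scaled to library totals. Lipg went the other way within the liraglutide group, highest in Lira161 where the endothelial level was lowest. In PBS155 the endothelial level was above that of Lira161, and Lipg was at 33.4 CPM against 69.7. Between the groups both were higher under liraglutide, with a log2 fold change of 0.82 for Lipg beside the marker median of 0.74. The part of endothelial cells in the Lipg values was not tested. For the 11 Kupffer cell markers the levels were 0.94, 0.32 and 0.92 in Lira161, Lira162 and Lira164, and 1.14, -0.24 and -0.90 in PBS155, PBS157 and PBS158. Their summed level ran from 295 to 455 CPM under liraglutide and from 123 to 481 CPM in PBS, scaled to library totals. Lpl was highest in PBS155, which had the highest Kupffer level, and low in PBS158, which had the lowest. The order did not hold throughout: PBS157 had 16.6 CPM of Lpl at a Kupffer level of -0.24, and Lira164 had 11.04 CPM at 0.92. The part of these cells in the Lpl values was not tested. Of 7 markers of adipocytes, another source of Lpl, Adipoq had at most 3 counts in any library, Plin1 and Lep at most 1, Cidea at most 7 and Retn none. Adrb3 had between 73 and 248 counts and Cfd between 2 and 55. Both were lower in every liraglutide library than in every PBS library, beside 16.4% of all tested genes. The margin of Adrb3 was small, 8.54 CPM in Lira164 against 8.65 CPM in PBS155. Neither gene was called (edgeR adjusted p = 0.170 for Adrb3 and 0.0544 for Cfd). The summed level of the 7, scaled to library totals, ran from 3.66 to 9.53 CPM under liraglutide and from 10.1 to 11.1 CPM in PBS. Their part in the Lpl values was not tested either.

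**Figure D4:**
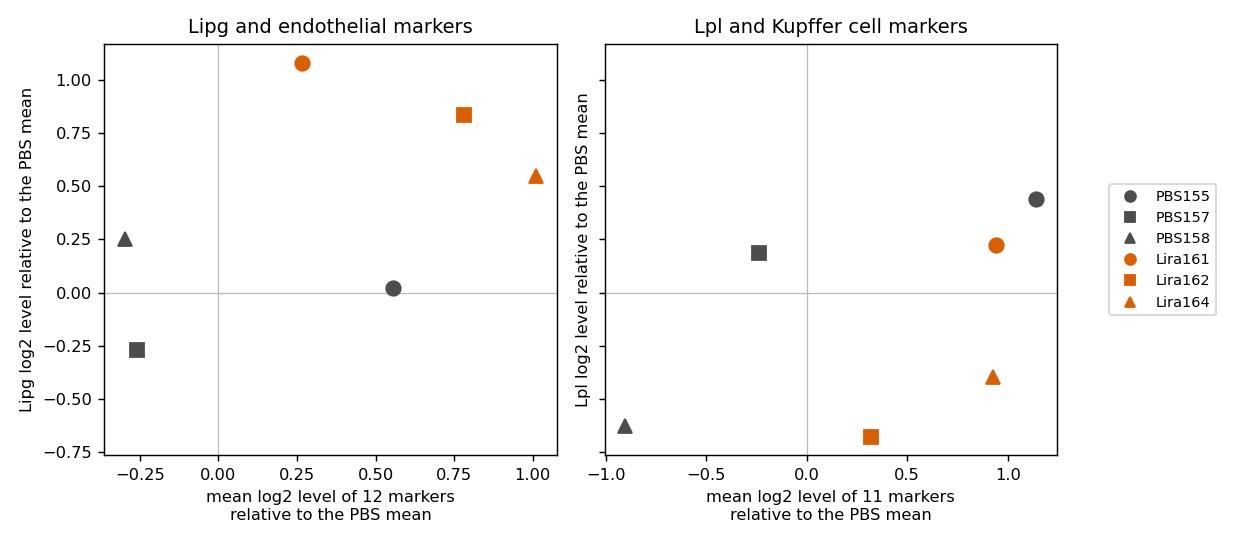
Log2 level of Lipg (left) against the mean of 12 endothelial markers, and of Lpl (right) against the mean of 11 Kupffer cell markers, both relative to the PBS mean, with 1 point per library. Among liraglutide libraries Lipg is highest (1.08) where the endothelial level is lowest (0.27), and Lpl is highest in PBS155 (0.44), which has the highest Kupffer level (1.14).

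Genes that anchor, activate or inhibit these lipases changed in both directions. Of 15 tested, 2 rose and 1 fell, with a median log2 fold change of 0.27, which was 0.06, 0.01 and 0.0031 without Lira162, Lira164 and PBS157. Gpihbp1, the endothelial protein that holds lipoprotein lipase on the capillary wall, was at 9.20, 8.01 and 5.38 CPM in PBS155, PBS157 and PBS158 and at 12.3, 12.9 and 16.4 CPM in Lira161, Lira162 and Lira164. It rose by 0.87 ± 0.20 (adjusted p = 0.0303 in edgeR), and its order over the liraglutide libraries was that of the endothelial markers. Between groups that order did not hold. The endothelial level was higher in PBS155 (0.56) than in Lira161 (0.27), and Gpihbp1 was lower in PBS155. The part of endothelial cells in the Gpihbp1 values was not tested. Apoa5, an apolipoprotein that favours lipolysis by lipoprotein lipase, rose by 0.65 ± 0.13 (adjusted p = 0.0191). Gpihbp1 lost its call without Lira161, Lira162, PBS157 or PBS158, and Apoa5 without Lira161, Lira162 or PBS157. Angptl4, a lipase inhibitor, was at 289 ± 49.9 against 202 ± 63.8 CPM (0.52 ± 0.25, adjusted p = 0.239), and Lmf1, which matures the lipases in the endoplasmic reticulum, at 27.5 ± 2.21 against 34.3 ± 1.18 CPM (-0.32 ± 0.10, adjusted p = 0.0737), both chosen after their values were seen.

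Of 12 tested genes for other neutral lipid and triglyceride lipases, 4 rose and 4 fell, with a median of -0.24. Ddhd2, a triglyceride and phospholipid hydrolase gene, rose from 27.4 ± 4.34 to 52.5 ± 4.73 CPM (0.94 ± 0.13, adjusted p = 0.00581 in edgeR), and Mgll, for monoglyceride lipase, by 0.51 ± 0.10. Ces1d, a carboxylesterase of hepatic triglyceride, fell from 849 ± 129 to 425 ± 86.1 CPM (-0.997 ± 0.17, adjusted p = 0.0102), and Aadac, an arylacetamide deacetylase gene, by 0.78 ± 0.14. The value of Ces1d is uncertain, since it may share reads with its near-identical neighbours. Ddhd2 and Ces1d kept their calls whichever library was left out, Aadac lost its call without PBS158, and Mgll lost it when any of Lira161, Lira162, PBS157 and PBS158 was left out.

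None of the 4 HDL genes passed the test, and the cholesterol exporter came closest. Abca1 encodes the transporter that loads cholesterol and phospholipid onto apolipoprotein A-I (chromosome 4, 53030787 to 53159895). It was at 283, 257 and 237 CPM in PBS155, PBS157 and PBS158 and at 171, 163 and 223 CPM in Lira161, Lira162 and Lira164. All liraglutide libraries were below all PBS libraries, Lira164 by a small margin. The log2 fold change of -0.48 ± 0.14 (95% interval -0.79 to -0.17) had an unadjusted p of 0.00649 and an adjusted p of 0.0623 in edgeR, which misses the threshold. The call was made without Lira164 (-0.64, adjusted p = 0.00888), without the low-count filter (0.0413) and with DESeq2 (0.0169).

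Lcat encodes lecithin-cholesterol acyltransferase, the enzyme that esterifies HDL cholesterol in plasma (chromosome 8, 105939551 to 105943382). It was at 356, 357 and 389 CPM in PBS155, PBS157 and PBS158 and at 374, 307 and 333 CPM in Lira161, Lira162 and Lira164, and the groups overlapped (-0.12 ± 0.11, 95% interval -0.37 to 0.13). Pltp encodes phospholipid transfer protein, which moves phospholipid between particles (chromosome 2, 164839518 to 164857711). It was at 36.6, 21.3 and 26.2 CPM in PBS155, PBS157 and PBS158, and the liraglutide values of 34.7, 28.5 and 29.9 CPM lay inside that range (0.15 ± 0.19, 95% interval -0.29 to 0.58). Its exons overlap those of Ctsa on the opposite strand by 495 bp, 19.3% of its exon length, so its value is uncertain. Scarb1 encodes SR-BI, the HDL receptor that takes up cholesteryl ester into hepatocytes (chromosome 5, 125277087 to 125341094). It was at 177, 201 and 175 CPM in PBS155, PBS157 and PBS158 and at 221, 178 and 182 CPM in Lira161, Lira162 and Lira164, with overlapping groups (0.07 ± 0.12, 95% interval -0.19 to 0.34). The fitted change of Pltp was -0.02 without PBS157 and that of Scarb1 -0.03 without Lira161. None of these 3 was called in any fit, and the intervals leave room for changes of up to 0.58 on the log2 scale for Pltp.

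Of 27 other genes of HDL formation, cholesterol uptake and transport, 2 rose and 1 fell, with a median log2 fold change of 0.09. Nceh1, a neutral cholesteryl ester hydrolase gene, rose from 68.0, 78.5 and 57.8 CPM in PBS155, PBS157 and PBS158 to 139, 149 and 127 CPM in Lira161, Lira162 and Lira164 (1.02 ± 0.13, adjusted p = 0.00399 in edgeR), and it was called whichever library was left out. Gramd1c, for a protein that moves sterol from the plasma membrane, fell by 0.51 ± 0.11 (not called without Lira162, PBS157 or PBS158). Abca8b, a transporter gene, rose by 0.37 ± 0.09 and was called in none of the fits that leave out Lira161, Lira162, Lira164, PBS155, PBS157 or PBS158. Nr1h3, which encodes the oxysterol receptor LXR alpha known to activate Abca1, was at 112 ± 1.17 against 104 ± 1.22 CPM (0.11 ± 0.08, adjusted p = 0.454), and Pdzk1, the adaptor of SR-BI, at 90.8 ± 6.56 against 85.3 ± 8.96 CPM (0.09 ± 0.11, adjusted p = 0.630), both chosen after their values were seen.

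Lrp1 encodes a large endocytic receptor for remnants and many other ligands, made by hepatocytes and other liver cells (chromosome 10, 127538161 to 127621148). It was at 965, 771 and 681 CPM in PBS155, PBS157 and PBS158 and at 537, 473 and 715 CPM in Lira161, Lira162 and Lira164. Lira164 exceeded PBS158, so the groups overlapped. The difference of -0.49 ± 0.18 (95% interval -0.90 to -0.07) had an unadjusted p of 0.0255 and an adjusted p of 0.133 in edgeR, and it was called without Lira164 (-0.68, adjusted p = 0.0271).

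Sort1 encodes sortilin, a receptor that carries proteins between the Golgi and the endosomes and binds apolipoprotein B (chromosome 3, 108284082 to 108361511). It was at 46.1, 39.0 and 37.2 CPM in PBS155, PBS157 and PBS158 and at 24.1, 16.6 and 27.9 CPM in Lira161, Lira162 and Lira164. The highest liraglutide library, Lira164, was below the lowest PBS library, PBS158. The log2 fold change of -0.84 (95% interval -1.26 to -0.42) had an adjusted p of 0.0288 in edgeR. The call was lost without Lira161 (adjusted p = 0.0849), PBS155 (0.0636), PBS157 (0.0651) or PBS158 (0.0663), where the values lay between -0.66 and -1.02 over all 6 such fits. Exons of the antisense gene Gm12523 overlap those of Sort1 by 338 bp, 4.47% of its exon length.

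Abca1, Lrp1 and Sort1 shared an order of libraries: PBS155 was the highest of PBS, and within liraglutide Lira162 was the lowest and Lira164 the highest. The ratio of Abca1 to Lrp1 per exon length was between 0.501 and 0.595 in the PBS libraries and between 0.532 and 0.590 in the liraglutide libraries. Relative to PBS, the log2 levels of Abca1 in Lira161, Lira162 and Lira164 were -0.60, -0.66 and -0.21, those of Lrp1 -0.57, -0.75 and -0.16, and those of Sort1 -0.75, -1.28 and -0.54. The 3 genes were picked out after their values were seen, and the likeness was not tested.

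To set the start regions of Abca1 and Lrp1 side by side, the 250 bases before their start sites are shown, from RefSeq on GRCm38.p6, where both start sites equal the GENCODE gene start. Capitals mark matches on either strand to any of 6 motifs: the nuclear receptor half-site AGGTCA, the FOXO site TGTTTAC, the E-box CACGTG, the sterol response core CACNCCAC, the GC box GGGCGG and the TATA box TATAAA. Both lie on the minus strand and are written 5′ to 3′ towards the start, Abca1 at chr4:53159896-53160145 and Lrp1 at chr10:127621149-127621398.
Abca1: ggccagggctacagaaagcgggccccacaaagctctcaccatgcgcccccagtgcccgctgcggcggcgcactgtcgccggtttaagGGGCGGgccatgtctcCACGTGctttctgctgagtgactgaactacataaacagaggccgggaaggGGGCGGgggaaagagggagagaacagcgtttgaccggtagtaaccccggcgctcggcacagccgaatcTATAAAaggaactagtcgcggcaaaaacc
Lrp1: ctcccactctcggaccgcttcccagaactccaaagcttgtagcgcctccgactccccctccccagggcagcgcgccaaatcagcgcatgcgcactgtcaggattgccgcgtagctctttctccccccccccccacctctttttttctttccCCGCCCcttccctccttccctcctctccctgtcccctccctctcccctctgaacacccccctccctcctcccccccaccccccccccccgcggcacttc
Counted from the first base shown, Abca1 has GC boxes from bases 88 and 154, an E-box from base 104 and a TATA box from base 222, and these matches do not overlap. Lrp1 has 1 GC box, from base 152, on the reverse strand. Of 32851 RefSeq promoter windows of this length, 32.7% hold a GC box, 12.4% the TATA letters, 6.02% the E-box, 14.0% the half-site, 5.29% the sterol core and 3.17% the FOXO site. The GC content was 61.6% for Abca1 and 67.2% for Lrp1, against a median of 52.4%. The GC box is the motif that both windows hold, and it is common. In these windows the exact letters of the half-site, the sterol core and the FOXO site were not found. That says nothing of sites elsewhere, nor of sites within these windows whose letters differ from the motifs.

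Among 24 other genes of the LDL receptor family, its adaptors and its endocytic partners, 2 rose and 1 fell, with a median log2 fold change of -0.0037. Lrp5, a coreceptor of Wnt signalling in the same receptor family as Lrp1, rose from 83.2, 71.1 and 68.1 CPM in PBS155, PBS157 and PBS158 to 125, 135 and 116 CPM in Lira161, Lira162 and Lira164 (0.76 ± 0.11, adjusted p = 0.00601 in edgeR). Lrp6, its close relative, was at 102 ± 13.5 against 102 ± 20.1 CPM (-0.01 ± 0.15, chosen after its values were seen). Hgs, a subunit of the complex that sorts endocytosed receptors, rose by 0.44 ± 0.10. Lrp5 was called whichever library was left out and Hgs only without Lira164. Of 18 VPS10-domain receptors and trafficking partners other than Sort1, 1 rose, Hip1r, which links clathrin to actin, from 26.8 ± 4.77 to 44.8 ± 2.29 CPM (0.74 ± 0.13, adjusted p = 0.0114), called in each fit with a library left out. Sorl1, the relative of Sort1, was at 0.78 ± 0.43 against 0.75 ± 0.28 CPM, a low level at which no difference could be seen, and it was chosen after its values were seen.

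Over the 9 lists, 159 distinct tested genes beside the 10 gave 18 higher and 14 lower calls, 20.1% against 8.77% of all tested genes. These counts were 7 and 7 without Lira161, 6 and 8 without Lira162, 21 and 17 without Lira164, 16 and 9 without PBS155, 8 and 10 without PBS157 and 5 and 4 without PBS158. The share stood above that of all genes in each of these fits, the closest being 5.66% against 3.22% without PBS158. These fits share most of their libraries, so they are not separate evidence. The lists were chosen with earlier results of these data known. The higher share can therefore come from that choice, and enrichment was not tested. The median size of a log2 fold change, whatever its sign, was 0.29 for the 10 genes, 0.25 for the 159 and 0.21 for all tested genes.

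**Figure D5:**
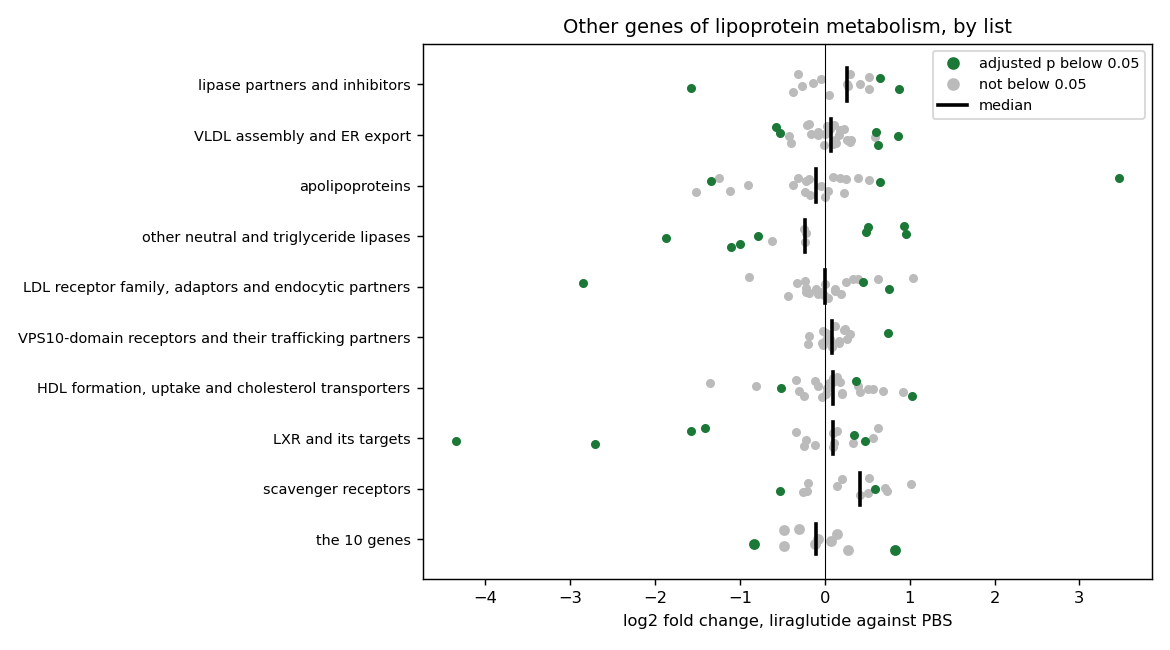
Log2 fold change of liraglutide against PBS for the tested genes of 9 lists of lipoprotein metabolism (members of the 10 left out) and for the 10 genes, 1 point per gene, with the median as a black bar and called genes in green. Called genes lie on both sides of 0 in all lists but that of the VPS10-domain receptors, and the list medians lie between -0.24 and 0.42.

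For the genes with the smallest p among the 10, the closest patterns over the 6 libraries were sought among 9257 other genes with a mean of at least 5 CPM, by the mean absolute difference of log2 levels relative to PBS. A gene picked in this way has a fold change near that of its member by construction. The changes and calls below are therefore no separate result, and how close unrelated genes come was not tested. Lipg was closest to Sema6b (mean difference 0.06), Als2cl (0.11) and Klf2 (0.11). Klf2 encodes a transcription factor known from endothelium, and it rose from 6.995 ± 1.32 to 12.5 ± 1.90 CPM (0.83 ± 0.18, adjusted p = 0.0215 in edgeR; not called without Lira161, Lira162, PBS157 or PBS158). Als2cl rose by 0.80 ± 0.12 and was called whichever library was left out. Sort1 was closest to Cited2 (0.04), Kansl1l (0.07) and Exph5 (0.07). Cited2, which encodes a transcriptional coregulator, fell from 27.0 ± 2.89 to 14.8 ± 3.37 CPM (-0.87 ± 0.17, adjusted p = 0.0169; not called without Lira161 or PBS158), and Kansl1l fell by 0.87 ± 0.17 (not called without Lira161). Abca1 was closest to Stim2 (0.02), Phtf2 (0.03) and Klkb1 (0.05), with log2 fold changes of -0.46, -0.46 and -0.47. Sema6b, Exph5, Stim2, Phtf2 and Klkb1 did not pass the test and, like Abca1, were called without Lira164.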

How the data were processed

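The values are raw read counts by gene symbol, deposited as 1 table of whole numbers with no normalisation. Per the submitters' processing notes, STAR and the build mm10 were used. No counting tool, annotation, strand setting or version was found in the labels or the file. Columns carry a group name and a number unlike the triplicate numbers of the titles, and were assigned to groups only.

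Counts were filtered with filterByExpr, scaled by TMM and tested across all genes with edgeR 4.0.16 in R 4.3.3 (glmQLFit with robust estimation, glmQLFTest), group being the sole factor. Two-sided p-values were Benjamini-Hochberg adjusted over 12626 genes, with a threshold of 0.05, below which a gene is said to be called. The standard error is the log2 fold change divided by the square root of F, and 95% intervals use the t quantile at the degrees of freedom of the fit. CPM are TMM-normalised, except for summed marker levels, with a prior count of 2 for log2 levels. Positions and exon lengths come from GENCODE M21 (GRCm38, the assembly of mm10). Promoters were found for 6 of the 10 genes in RefSeq.

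The 10 genes, the 9 pathway lists and the 10 marker lists were chosen with earlier results of these data known. From each list up to 4 called genes with the smallest p were to be named, and for likeness the 3 closest genes of the 3 members with the smallest p. Not every gene that these rules pick is reported here. In these lists 4 genes were found under another symbol. Alternatives were other scalings (DESeq2 size factors, upper quartile, library totals), other filters, DESeq2 1.42.0, limma-voom (limma 3.58.1), leaving out the 10 most abundant genes, and leaving out each library in turn. On simulated counts of this comparison, with 12615 genes tested, genes with a planted change of 1.5-fold, 2-fold and 4-fold were called in 35.8%, 83.6% and 95.3% of cases, and 15 of the 151 calls were false, a larger share than the threshold of 0.05 aims at.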

Additional observations from a re-analysis of the deposited data

How the results depend on the processing

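The direction was the same in all 14 alternatives for 7 of the 10 genes. The other 3, Lipc, Pltp and Scarb1, each changed sign in 1 fit with a library left out and were not called in any. Among the 10 genes, 1 higher and 1 lower call became 1 and 2 without the low-count filter and 2 and 2 with the Wald test of DESeq2. The share of all tested genes called was 7.09% without that filter and 12.6% with DESeq2. With a library left out the calls ranged from 0 to 1 higher and from 0 to 3 lower. Over all tested genes, the 1107 calls ranged from 393 to 1496 in those fits. The number of genes whose groups did not overlap was within 1.5 times the reported 4 under the other scalings and filters. Of the called genes beside the 10 that were followed through the alternatives, 8 of 38 kept their call whichever library was left out. No paired analysis was possible because the columns carry no triplicate number. Depth limits Lpl most, with between 196 and 539 counts per library, the fewest of the 10 genes in each library.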

Other observations

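LXR and its targets changed in both directions. Of 17 tested genes beside the 10, 2 rose and 4 fell, with a median log2 fold change of 0.09. Scd1, a desaturase gene (-4.34 ± 0.38), and Cyp7a1, of bile acid synthesis (-2.70 ± 0.34), fell and were called whichever library was left out. Myo1c, a myosin gene, rose by 0.48 ± 0.10 (not called without Lira161, Lira162, PBS157 or PBS158). The transporter genes Abcg5 and Abcg8, which move sterol into bile, were at 104 ± 12.6 against 131 ± 8.87 CPM (edgeR adjusted p = 0.0929) and 145 ± 20.3 against 173 ± 10.3 CPM (0.233), both chosen after their values were seen.

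Of 13 scavenger receptor genes, 1 rose and 1 fell, with a median log2 fold change of 0.42. That median was 0.20 without Lira164, 0.26 without PBS157, 0.22 without PBS158 and 0.68 without PBS155. Stab1, made by sinusoidal endothelium and macrophages, was at 32.4, 26.5 and 26.4 CPM in PBS155, PBS157 and PBS158 and at 35.5, 44.6 and 48.0 CPM in Lira161, Lira162 and Lira164 (0.59 ± 0.13, adjusted p = 0.0290), with the same order over the liraglutide libraries as the endothelial markers. Between groups the endothelial level was higher in PBS155 (0.56) than in Lira161 (0.27), and Stab1 was lower in PBS155. The part of endothelial cells in the Stab1 values was not tested. Colec12, a collectin receptor gene, fell by 0.53 ± 0.10. Stab1 lost its call without Lira162, Lira164, PBS157 or PBS158, and Colec12 without Lira162 or PBS158.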
